A study of Mus musculus with 4 samples.

Results

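The genes that take glucose into the cell, split it to pyruvate, turn pyruvate to lactate or acetyl-CoA, and feed the pentose phosphate pathway were examined in RNAseq of F123-ESCs. The 32 genes were taken by symbol from the 24026 genes of the table, and all 32 were found. They comprise 2 glucose transporters, 16 enzymes of glycolysis, 4 genes of lactate formation and export, 3 subunits of the pyruvate dehydrogenase complex and 7 enzymes of the pentose phosphate pathway. F123-ESCs are 1 male mouse embryonic stem cell line with the genotype S129/CAST, from a cross of S129/Jae and Cast mice. By this cross the line would carry a copy of each autosome from either strain, but copy number was not tested. The study gives the S129 chromosomes as maternal and the CAST chromosomes as paternal. Strain and parent of origin therefore cannot be told apart in any difference between the alleles. All 4 libraries, replicates 1 to 4, came from untreated cells. By the study's methods the line is kept on a feeder layer of mouse fibroblasts. It was grown for at least 2 passages on gelatin without feeders, to remove them, and collected after about 48 h. No treatment or second cell type enters, so the comparisons are between genes, between libraries and between the S129 and the CAST allele. The labels do not say that the replicates were separate cultures, so every p-value measures the spread between these libraries, which may be technical.

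Glycolysis converts glucose to pyruvate with a net gain of ATP, and lactate dehydrogenase then regenerates the NAD+ it uses by reducing pyruvate to lactate, which monocarboxylate transporters carry out of the cell. The oxidative branch of the pentose phosphate pathway makes NADPH, and its non-oxidative branch links ribose phosphate for nucleotides with intermediates of glycolysis. Pluripotent stem cells are known for a high glycolytic flux and for exporting lactate even when oxygen is present.

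The values are RPKM, reads scaled by the length of the gene and by the total reads of the allele, and they count only reads that cover a difference between the strains. RPKM of 2 genes therefore also depends on how many such differences each gene holds, which was not used here. The libraries held 34120416 to 56627972 reads assigned to an allele, of which the 32 genes took 20 (Tpi1) to 517760 (Pkm) reads each over all libraries. Unless an allele is named, a level is the mean of the S129 and the CAST RPKM. All 8 pluripotency genes were expressed, at 29.5 to 7111 RPKM, or at 18.0 RPKM and above with the length of the principal transcript, and they summed to 7698 to 9330 RPKM per library. Markers of other cell types were not absent. Of 8 fibroblast genes, 6 reached 1 RPKM, with a sum of 181 to 228 RPKM per library that became 52.2 to 63.3 RPKM with the principal length, led by Col1a2 at 166 and 26.3 RPKM, respectively, whereas Lum was near 0 at 0.0462 RPKM. Of 5 neural genes 2 reached 1 RPKM, led by Tubb3 at 20.0 RPKM, with Neurod1 listed at 0 and a sum of 30.8 to 33.6 RPKM. Of 5 muscle genes 2 did, led by Des at 16.6 RPKM, with Myod1 at 0.0289 RPKM and a sum of 26.6 to 31.7 RPKM. Of 4 genes of primitive endoderm 2 did, with Dab2 at 44.2 RPKM (6.09 RPKM with the principal length), Sox17 at 0.326 RPKM and a sum of 41.9 to 48.8 RPKM. The part of other cells in the levels of the 32 genes was not tested.

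The genes of the pathway were among the highly expressed genes of F123-ESCs. Of the 32 genes, 31 reached 1 RPKM, compared with 49.7% of all genes, 28 reached 10 RPKM (24.5% of all genes), and 12 reached 100 RPKM (4.20% of all genes). The median level of the 32 genes was 65.2 RPKM and that of all genes was 0.975 RPKM. Of the 12 genes with at least 100 RPKM, 6 belong to glycolysis, 2 to lactate, 1 to the pyruvate dehydrogenase complex and 3 to the pentose phosphate pathway.

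The length behind the deposited RPKM matters for this order. For 29 of the 32 genes it is the length of the first transcript that GENCODE M21 lists for the gene. For 9 of the 32 genes the length used is less than 0.75 of the length of the principal transcript. Tkt was divided by 391 bp instead of 3223 bp and Eno1 by 519 bp instead of 2027 bp, whereas Gapdh was divided by 3289 bp instead of 1420 bp. With the principal length, an alternative chosen after seeing the data, the median of the 32 genes was 57.6 RPKM against 2.64 RPKM over 17627 genes, and 12 genes again reached 100 RPKM (3.85% of these genes). For the 32 genes both levels are given where they differ by over 1.5 times.

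**Figure D1:**
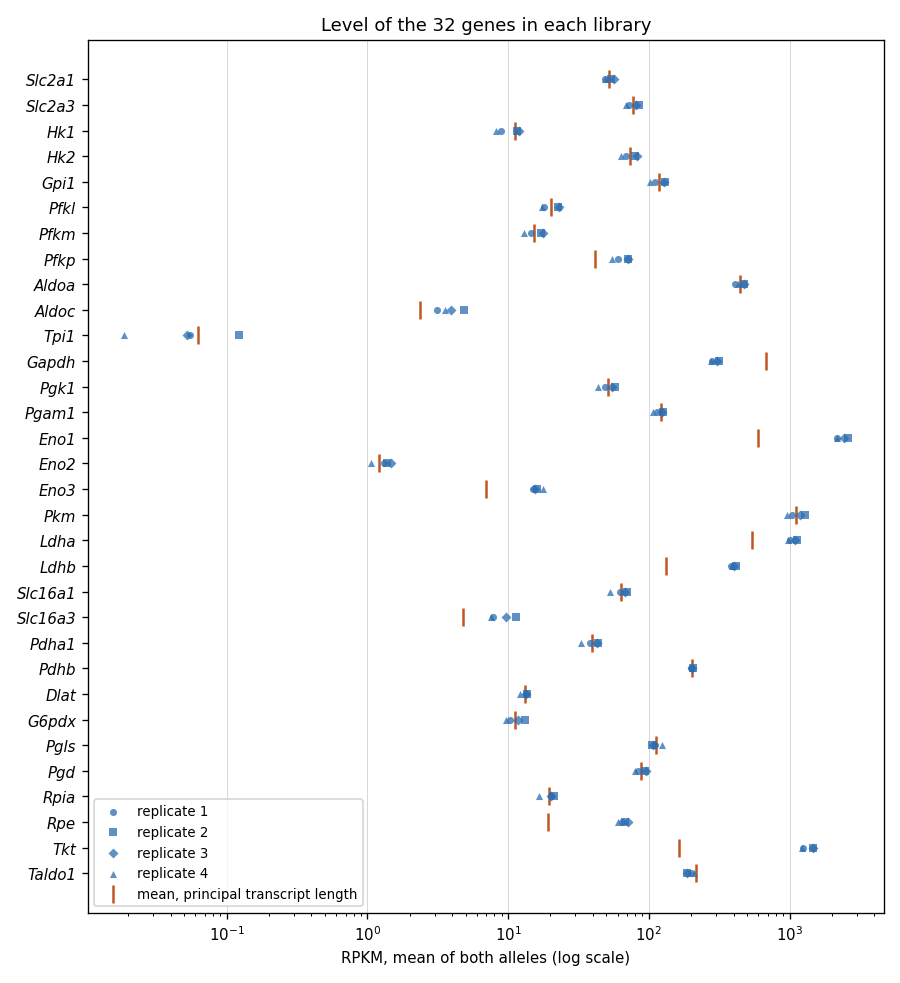
Level of each of the 32 genes, from uptake (top) to the pentose phosphate pathway (bottom), as RPKM on a log axis. Blue symbols show the 4 libraries with the deposited RPKM, and orange ticks the mean with the length of the principal transcript. The libraries lie close together for every gene but Tpi1, and the ticks stand apart from the symbols for the genes whose deposited length is that of a short or long transcript, such as Tkt and Gapdh.

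Both glucose transporters were expressed, and uptake itself was not measured. Slc2a3, the high-affinity glucose transporter GLUT3, measured 72.4, 85.1, 81.6 and 69.4 RPKM in replicates 1 to 4. Slc2a1, the widely expressed transporter GLUT1, measured 48.6, 53.7, 56.6 and 48.9 RPKM. The values of the transporters did not overlap, and Slc2a3 was 1.48-fold higher (Slc2a1 minus Slc2a3 of -0.57 ± 0.071 on the log2 scale, SD, n = 4). This order is not stable: on the CAST allele alone Slc2a1 was higher by 0.53 on the log2 scale, and with the length of all exons of the gene it was higher by 0.20.

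Among the hexokinases, which trap glucose as glucose 6-phosphate, Hk2 predominated. Hk2 measured 68.7, 79.9, 82.7 and 63.2 RPKM, and Hk1 measured 8.91, 11.6, 12.0 and 8.16 RPKM. Hk2 was 7.24-fold higher and made up 86.9% ± 0.570 of the summed RPKM of the 5 hexokinase genes. With the length of all exons the difference was 13.2-fold. Gpi1, which converts glucose 6-phosphate to fructose 6-phosphate, measured 118 ± 13.6 RPKM.

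The 3 subunits of phosphofructokinase, the committed step of glycolysis, were all expressed. Pfkp, the platelet type, measured 64.4 ± 8.26 RPKM (41.6 RPKM with the principal length), followed by Pfkl, the liver type, at 20.2 ± 2.95 RPKM and Pfkm, the muscle type, at 15.5 ± 2.24 RPKM. Within every library the order was Pfkp, Pfkl, Pfkm. Pfkp gave 64.3% of the sum with the deposited length and 54.1% with the principal length. With the length of all exons the order was lost, as Pfkl minus Pfkm became -0.21 on the log2 scale and Pfkp minus Pfkm -0.023.

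In the lower part of glycolysis Aldoa, the main aldolase, measured 447 ± 32.8 RPKM, which was 99.1% of the aldolase sum and 114-fold above Aldoc, the brain type, at 3.86 ± 0.736 RPKM (2.35 RPKM with the principal length). Gapdh, the enzyme that oxidises glyceraldehyde 3-phosphate, measured 295 ± 18.9 RPKM, and 683 RPKM with the principal length. Pgam1, the phosphoglycerate mutase of most tissues, measured 118 ± 9.25 RPKM. Pgk1, the phosphoglycerate kinase that yields the first ATP of the pathway, lies on the X chromosome and measured 51.3 ± 6.21 RPKM as the mean of both alleles and 103 RPKM on its S129 allele.

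Eno1, the ubiquitous enolase, was the highest of the 32 genes with 2159, 2588, 2448 and 2173 RPKM, or a mean of 600 RPKM with the principal length. It made up 98.4% of the enolase sum with the deposited length and 95.6% with the principal length. Eno3, the muscle enolase, measured 16.2 ± 1.18 RPKM (6.92 RPKM with the principal length), and Eno2, the neuronal enolase, was next to the lowest of the 32 genes at 1.30 ± 0.179 RPKM. Pkm, the pyruvate kinase of non-liver cells, measured 1033, 1281, 1195 and 953 RPKM, and was the highest gene once principal lengths were used.

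Tpi1 stands apart. The gene of triosephosphate isomerase, an enzyme that glycolysis cannot do without, measured 0.0548, 0.123, 0.0522 and 0.0186 RPKM, which rest on 20 reads in all 8 columns. Its level is a count of reads that cover a strain difference and does not say whether the gene is expressed. Tpi1 was not tested between the alleles.

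Most of the RPKM of lactate dehydrogenase came from Ldha. Ldha, the subunit that favours reduction of pyruvate, measured 1005, 1127, 1098 and 979 RPKM (mean 543 RPKM with the principal length). Ldhb, the subunit that favours oxidation of lactate, measured 384, 417, 403 and 387 RPKM (mean 133 RPKM with the principal length). Ldha was 2.64-fold higher with the deposited length and 4.07-fold higher with the principal length, and gave 72.4% and 79.9% of the sum, respectively. Of the exporters, Slc16a1 (MCT1) measured 63.2 ± 7.48 RPKM and Slc16a3 (MCT4) 9.08 ± 1.78 RPKM, or 4.76 RPKM with the principal length.

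Pyruvate dehydrogenase, which sends pyruvate into mitochondrial acetyl-CoA, was measured through 3 subunits. Pdhb, the beta subunit of its first enzyme, measured 200, 206, 202 and 203 RPKM, the smallest spread of all 32 genes with a coefficient of variation of 1.31%. Dlat, the second enzyme of the complex, measured 13.2 ± 0.733 RPKM, and Pdha1, the X-linked alpha subunit, 39.4 ± 4.72 RPKM as the mean of both alleles.

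In the oxidative branch of the pentose phosphate pathway, G6pdx, the entry enzyme, measured 11.2 ± 1.55 RPKM as the mean of both alleles and lies on the X chromosome. Pgls and Pgd, the enzymes of the following steps, measured 112 ± 8.28 and 88.5 ± 7.85 RPKM. In the non-oxidative branch Tkt, transketolase, measured 1250, 1463, 1472 and 1224 RPKM, which became a mean of 164 RPKM with the principal length, below Taldo1, transaldolase, at 217 RPKM. Rpe, which epimerises ribulose 5-phosphate, measured 66.1 ± 4.68 RPKM (19.2 RPKM with the principal length), and Rpia, the isomerase acting on the same sugar, 19.6 ± 2.02 RPKM.

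Over the 11 pairs of isozymes or transporters compared, the sign of the difference was the same in all 4 libraries for each pair. The two-sided exact sign-flip permutation test gave p = 0.13 for every pair (0.13 after Benjamini-Hochberg adjustment), which is the smallest p that 4 libraries allow, so no pair could pass 0.05. The SD of the log2 difference between libraries was 0.023 (Pfkp against Pfkm) to 0.28 (Eno2 against Eno3), and every difference as deposited exceeded its SD. Length moved most of them, since the fold differed by over 1.5 times from the deposited one in 8 of the 11 pairs with the principal length and in 9 with the length of all exons. With the latter, Pfkp was 1.14-fold above Pfkl and Eno1 was 275-fold above Eno2, in place of 3.18-fold and 1674-fold.

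**Figure D2:**
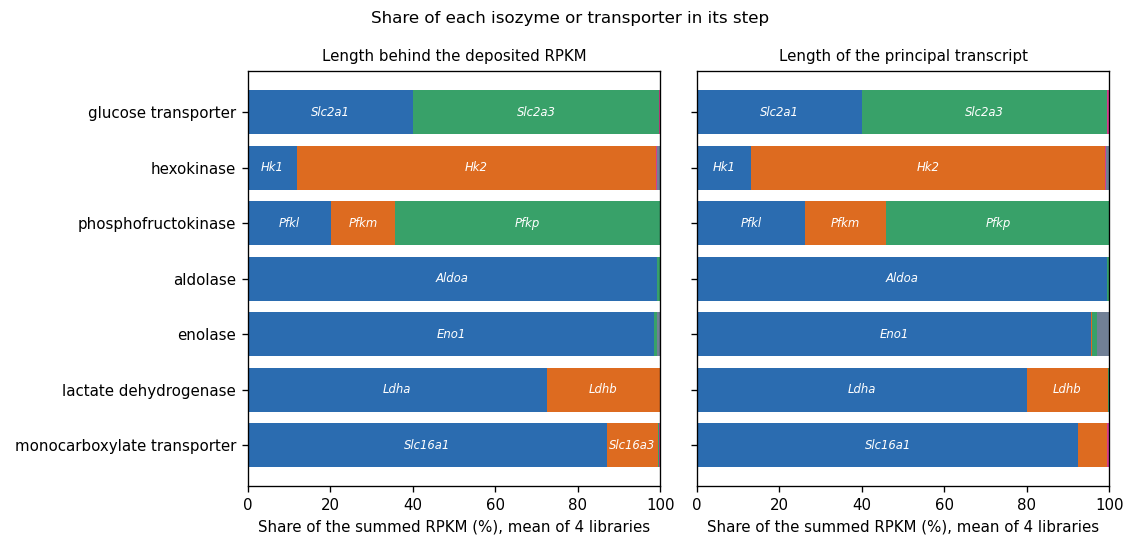
Share of each gene in the summed RPKM of its step (%, mean of 4 libraries), with the deposited RPKM (left) and with the length of the principal transcript (right). Segments without a name are genes of the step with at most 9% of the sum, Slc16a3 on the right included. Hk2, Aldoa, Eno1, Ldha and Slc16a1 take most of their steps with either length, and Pfkp falls from 64.3% to 54.1%.

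The promoters of the genes were on the median richer in G and C than those of all genes. RefSeq (GRCm38.p6) gave 43 promoters of 300 bases, from 250 bases before to 50 bases after the start, for 31 of the 32 genes, and Slc2a3 had no entry. Their GC content was 36.7% (1 of the 4 promoters of Pfkm) to 73.7% (Slc16a1), with a median of 60.7%, compared with 52.7% over 32851 promoters. The letters ACGTG, which lie in the sites bound by the hypoxia-inducible factors and, as CACGTG, by the MYC family, were searched on both strands, so that each CACGTG counts as 2 matches. They occurred in 17 of the 43 promoters (39.5%, in 15 genes) and in 19.6% of all promoters. CACGTG occurred in 3 of the 43 (6.98%), against 7.15% of all promoters, and GGGCGG, the letters of the GC box, in 26 (60.5%) against 35.7%. These are matches of letters and not sites shown to be bound.

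The promoter of Ldha at chr7:46845554-46845853 held 5 matches, more than any other of the 43, while the other promoter of Ldha held none. That of Slc16a1 held 3, as did 1 promoter of Pfkm. The former promoter of Ldha and that of Slc16a1 are shown because they belong to the production and the export of lactate. Those of Gapdh and Pgam1, the autosomal genes with the largest differences between the alleles, are shown beside them. They run 5′ to 3′ along the gene's strand in the reference strain, with ACGTG or its complement CACGT in capitals.
Ldha (chr7:46845554-46845853, plus strand): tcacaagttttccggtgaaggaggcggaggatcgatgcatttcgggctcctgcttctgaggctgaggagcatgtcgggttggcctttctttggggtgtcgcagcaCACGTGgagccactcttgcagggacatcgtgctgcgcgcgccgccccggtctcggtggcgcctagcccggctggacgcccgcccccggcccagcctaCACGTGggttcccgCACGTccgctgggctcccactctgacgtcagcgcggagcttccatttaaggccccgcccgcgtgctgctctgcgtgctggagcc
Slc16a1 (chr3:104638414-104638713, plus strand): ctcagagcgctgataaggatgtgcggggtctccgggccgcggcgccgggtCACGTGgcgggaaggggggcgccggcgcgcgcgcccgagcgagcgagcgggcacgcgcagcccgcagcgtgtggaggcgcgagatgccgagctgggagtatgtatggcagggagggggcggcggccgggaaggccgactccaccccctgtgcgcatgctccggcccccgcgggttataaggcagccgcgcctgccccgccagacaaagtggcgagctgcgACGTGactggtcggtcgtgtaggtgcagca
Gapdh (chr6:125165724-125166023, minus strand): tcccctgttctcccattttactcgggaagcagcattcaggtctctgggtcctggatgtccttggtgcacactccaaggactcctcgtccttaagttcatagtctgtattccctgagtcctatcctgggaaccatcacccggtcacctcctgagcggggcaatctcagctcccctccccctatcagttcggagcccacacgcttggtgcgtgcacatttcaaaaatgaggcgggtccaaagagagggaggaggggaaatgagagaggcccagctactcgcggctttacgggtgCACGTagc
Pgam1 (chr19:41911621-41911920, plus strand): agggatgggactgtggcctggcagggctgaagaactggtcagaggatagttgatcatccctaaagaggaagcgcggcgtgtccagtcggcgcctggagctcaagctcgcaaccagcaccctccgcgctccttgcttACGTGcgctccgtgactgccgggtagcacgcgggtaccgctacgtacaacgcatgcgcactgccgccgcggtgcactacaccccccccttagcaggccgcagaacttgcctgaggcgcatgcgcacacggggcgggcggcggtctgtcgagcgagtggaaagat
In Ldha, 4 of the matches belong to 2 copies of CACGTG, and in Slc16a1 CACGTG occurs once. Eno1 and Tkt, the genes with the highest deposited RPKM, held none in their promoters. With the principal length Pkm and Gapdh were the highest, and they held matches. The promoter of Gapdh held 1, and 1 promoter of Pkm held 2 while its other promoter held none.

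The genes were reproducible between libraries. The coefficient of variation of the 31 genes with at least 1 RPKM ran from 1.31% (Pdhb) to 19.6% (Slc16a3). Its median over all 32 genes, Tpi1 included, was 10.1%, compared with 9.26% over all genes with at least 1 RPKM. What spread there was ran largely in parallel: relative to the gene's own mean, 28 of the 31 genes were above it in replicate 2 and 27 in replicate 3, but 4 in replicate 1 and 4 in replicate 4. The median deviation of the 31 genes on the log2 scale was -0.079, 0.12, 0.093 and -0.14 in replicates 1 to 4. The 11929 genes with at least 1 RPKM compared in this way deviated by -0.027, 0.058, 0.078 and -0.099. Of these genes 39.3%, 71.3%, 75.9% and 27.2% were above their mean in replicates 1 to 4.

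The members with the largest deviations were Slc16a3, at 7.77, 11.3, 9.70 and 7.53 RPKM, and Aldoc, at 3.12, 4.85, 3.91 and 3.54 RPKM. Eno3, Pgls and Taldo1 ran the other way, being highest in replicate 4. Across genes, Spearman's correlation of the deviation with the principal length was -0.18, 0.20, 0.46 and -0.30 for 11115 genes and -0.30, 0.51, 0.68 and -0.66 for the 31 genes. Genes share the library and are not independent replicates. Replicate 4 also had the lowest read total of the 4 libraries, and the part of length and depth in the deviation was not tested.

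**Figure D3:**
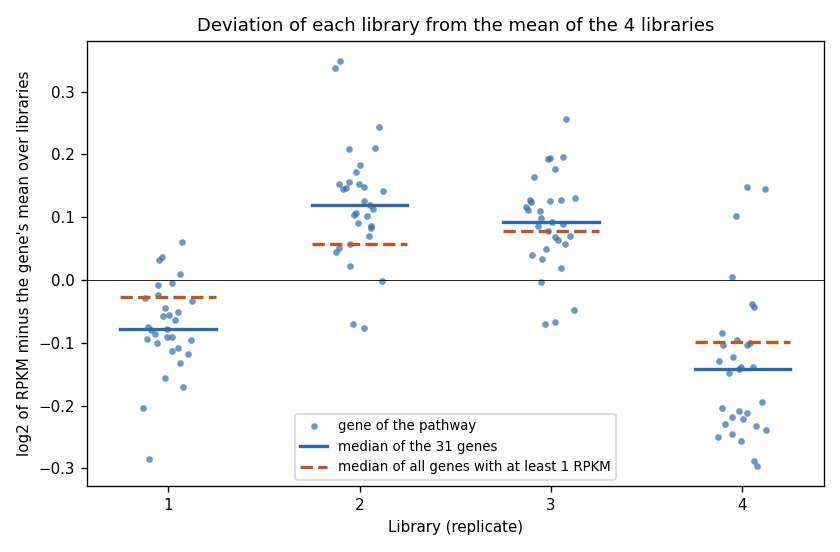
Deviation of each library from the gene's mean over the 4 libraries, on the log2 scale. Each point is 1 of the 31 genes with at least 1 RPKM, the blue line is their median and the dashed orange line the median of all genes with at least 1 RPKM. The genes sit mostly above 0 in replicates 2 and 3 and mostly below 0 in replicates 1 and 4, as the medians of all genes do.

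The alleles of the pathway genes differed in both directions. Alleles were compared within each library by limma on log2(RPKM+0.1), with Benjamini-Hochberg adjustment over 13341 genes, and a gene was called at an adjusted p under 0.05. Of the 29 autosomal genes 28 were tested, and 7 of these were higher on S129 (25%, where 28.9% of all 12869 autosomal genes tested were higher on S129), namely Eno3, Gapdh, Gpi1, Hk2, Ldhb, Pgd and Slc2a3. A further 12 were higher on CAST (42.9%, where 32.5% of autosomal genes were), namely Aldoc, Dlat, Eno1, Eno2, Ldha, Pdhb, Pfkp, Pgam1, Rpia, Slc16a1, Slc2a1 and Tkt. The other 9, Hk1, Pfkl, Pfkm, Aldoa, Pkm, Slc16a3, Pgls, Rpe and Taldo1, did not pass the test. Every gene called had the same direction in all 4 libraries. The median size of the difference was 0.37 on the log2 scale for the 28 genes and 0.29 for all autosomal genes.

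The split between S129 and CAST depended on the scaling. When the autosomal RPKM were brought to the same sum in all columns, which moved the median difference of autosomal genes by 0.10 on the log2 scale, 10 genes were higher on S129 (36.2% of autosomal genes) and 9 on CAST (23.9% of autosomal genes). Pfkm, Pgls and Slc16a3 were then called for S129, and Dlat, Pdhb and Tkt were no longer called for CAST. With the median difference of each chromosome taken out, 10 genes were higher on S129 (28.6% of autosomal genes) and 10 on CAST (28.4% of autosomal genes). For this, chromosomes 3 and 16 were each divided in 2 parts, at the position that best separated the S129 share in these data. Shares were taken over protein-coding genes with at least 400 reads. On chromosome 3 the median share was 51.3% over 81 genes before the division and 37.1% over 452 genes after it. On chromosome 16 it was 64.3% over 270 genes and 50.5% over 95 genes. The allele calls of genes there include these shifts, whose cause was not tested.

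Differences of at least 1.5-fold were found for 8 genes. On S129 these were Gapdh, Slc2a3 and Hk2 (10.7%, where 12.1% of autosomal genes passed), and on CAST Pgam1, Slc16a1, Aldoc, Rpia and Eno2 (17.9%, where 12.8% passed). With the autosomal sum equalised, Eno3, Gpi1 and Ldhb joined them, so that 6 genes were higher on S129 (21.4%, where 14.8% of autosomal genes passed) and the same 5 on CAST (10.6% of autosomal genes). With the chromosome medians taken out, Hk2 and Slc16a1 left this group, so that 2 genes were higher on S129 (11.3% of autosomal genes) and 4 on CAST (10.1% of autosomal genes).

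**Figure D4:**
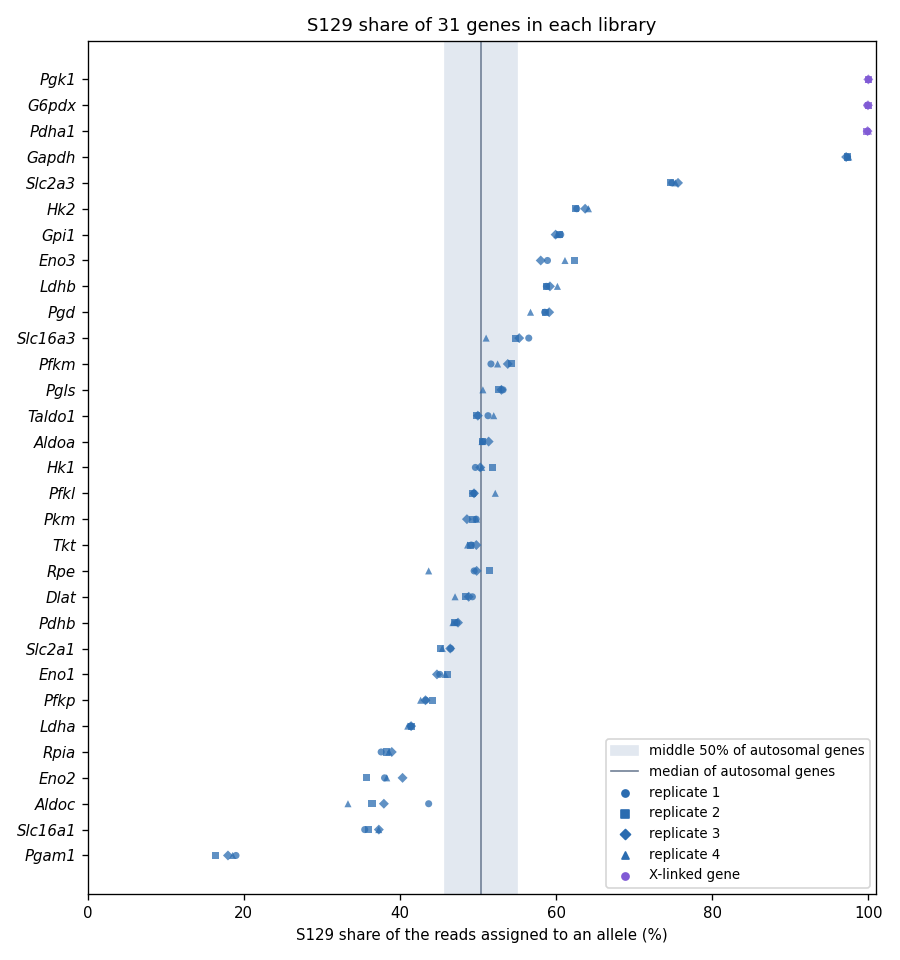
Share of the reads assigned to S129 (%) in each library for 31 genes, ordered by the mean, with the X-linked genes in purple and without Tpi1. The grey band and line give the middle 50% and the median of 10946 autosomal protein-coding genes with at least 400 reads. The 4 libraries of a gene lie close together, Gapdh stands at 97.3% beside the X-linked genes, and Pgam1 is lowest at 18.0%.

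Gapdh (chr6:125161715-125166467, minus strand) had the largest autosomal difference of the pathway. Its S129 allele measured 550, 614, 591 and 536 RPKM and its CAST allele 15.7, 18.1, 18.1 and 14.5 RPKM, so the alleles were far from overlapping in every library. The S129 allele was 34.5-fold higher (log2 difference of 5.11, SE 0.042, adjusted p = 1.36e-06 in limma). S129 took 97.3% ± 0.138 of the reads (SD, n = 4), and 16 of all autosomal genes tested (0.124%) had a difference at least as large. The 20 nearest protein-coding genes with at least 400 reads, 10 on each side, had a median S129 share of 55.4%. None exceeded 77.6%, so the surrounding genes did not share the difference. GENCODE M21 holds 154 processed pseudogenes at least 90% identical to the Gapdh transcript over at least 50% of it, and the best is 100% identical. Of these, 7 are in the table, with 1259 reads. Gapdh also overlaps Iffo1 on the other strand, and how the counting treated strand is not given in the sources used here. The part of shared reads in the Gapdh difference was not tested, the strain differences behind its reads were not used here, and its allele values are uncertain.

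Pgam1 (chr19:41911923-41918660, plus strand) differed in the other direction. Its S129 allele measured 42.1, 39.9, 43.1 and 38.2 RPKM and its CAST allele 185, 213, 205 and 175 RPKM, with no overlap. The CAST allele was 4.76-fold higher (log2 difference of -2.25, SE 0.057, adjusted p = 2.29e-05 in limma). The S129 share was 18.0% ± 1.15, and 139 autosomal genes (1.08%) had a difference as low or lower. All 20 neighbours had a higher S129 share, with a median of 51.6%. Pgam1 has 3 processed pseudogenes of at least 90% identity, the best of them 100% identical, and their part was not tested.

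Slc2a3 (chr6:122727809-122801640, minus strand) was higher on S129. Its S129 allele measured 107, 126, 122 and 103 RPKM and its CAST allele 37.4, 44.6, 41.0 and 35.4 RPKM. The difference was 2.90-fold (log2 difference of 1.53, SE 0.032, adjusted p = 1.26e-05 in limma), with an S129 share of 75.1%. None of the 20 neighbours reached this share, and their median was 52.1%. For Slc2a1, CAST was 1.23-fold higher (-0.29 on the log2 scale, adjusted p = 0.00210 in limma). On the CAST allele alone Slc2a1, at 57.2 RPKM, stood above Slc2a3, at 39.6 RPKM.

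Slc16a1 (chr3:104638668-104658462, plus strand) was higher on CAST together with its surroundings. The S129 allele measured 43.4, 49.1, 49.0 and 38.5 RPKM and the CAST allele 81.5, 91.0, 85.6 and 67.5 RPKM, a log2 difference of -0.85 (SE 0.036, adjusted p = 0.000103 in limma). Its S129 share was 36.5%, close to the median of 35.5% of the 20 nearest genes and of 37.1% over the 452 genes on chromosome 3 beyond position 41626720. With the median of these genes, the second of the parts into which chromosome 3 was divided, taken out, the difference became -0.053 (adjusted p = 0.28 in limma). The division was placed by the S129 share of these same data, Slc16a1 included, so this value is no independent test. The partner Slc16a3 had a difference of 0.20 that missed the threshold (adjusted p = 0.0513 in limma). It passed without replicate 4 (0.26, adjusted p = 0.0129) and under 5 other alternatives, at an adjusted p of 0.0255 to 0.0446.

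Genes that act at the same step could differ in direction. Ldha was higher on CAST, with 816, 911, 889 and 784 RPKM on S129 and 1194, 1343, 1307 and 1175 RPKM on CAST (log2 difference of -0.56, SE 0.029, adjusted p = 0.000181 in limma). Ldhb was higher on S129, with 445, 482, 470 and 459 RPKM on S129 and 323, 353, 336 and 316 RPKM on CAST (0.48, SE 0.032, adjusted p = 0.000403). The alleles of neither gene overlapped. Ldha has 11 processed pseudogenes of at least 90% identity, the best at 95.9%, and their part was not tested. Both directions were the same under every scaling tried.

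At other steps with several isozymes or transporters among the 32 genes, calls in both directions were found for enolase and the glucose transporters. Hexokinase, phosphofructokinase, aldolase and the monocarboxylate transporters had 1 called gene each. No difference within a step was tested. Hk2 was 1.65-fold higher on S129 (log2 difference of 0.73, adjusted p = 0.000144 in limma), and Hk1 differed by -0.023 (adjusted p = 0.581). Pfkp was higher on CAST (-0.44, adjusted p = 0.000487 in limma), and Pfkm, at 0.12, missed the threshold (adjusted p = 0.0509). Aldoc was higher on CAST (-0.76, adjusted p = 0.00484 in limma). Eno1 and Eno2 were higher on CAST (-0.32 and -0.70) and Eno3 on S129 (0.53). Eno1 and Pkm each have 6 processed pseudogenes of at least 90% identity, so their reads may be split among copies. Aldoa and Pkm, at 447 and 1116 RPKM, differed by -0.013 and -0.093, and with the autosomal sum equalised by 0.090 and 0.0096, none of these past the threshold. Pkm was called for CAST with a pseudocount of 1 (adjusted p = 0.0498 in limma), a filter of 10 RPKM (0.0281) and a variance trend (0.00385).

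In the pentose phosphate pathway Pgd was higher on S129 (0.43, adjusted p = 0.00101 in limma) and Rpia on CAST (-0.74, adjusted p = 0.000103 in limma). Rpia measured 15.0, 15.7, 15.4 and 12.5 RPKM on S129 and 25.7, 26.4, 25.1 and 20.7 RPKM on CAST, while its 20 neighbours had a median S129 share of 57.4%. Taldo1 was level between the alleles, with 195 and 197 RPKM. Tkt was called for CAST by a small difference of -0.10 (adjusted p = 0.0393 in limma), which did not pass when replicate 1, 2, 3 or 4 was left out (adjusted p = 0.108, 0.132, 0.0910 and 0.0907) or without pairing the alleles of a library (0.443). Dlat, at -0.15 (adjusted p = 0.0249 in limma), did not pass without replicate 2, 3 or 4 (0.0898, 0.0756 and 0.0554) or without the pairing (0.155). Pdhb was higher on CAST (-0.22, adjusted p = 0.00341 in limma).

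Gapdh, Tpi1, Eno2, Slc2a3, Hk2, Ldhb and Rpia, 7 of the 32 genes, lie on chromosome 6. Over protein-coding genes with at least 400 reads, its median S129 share of 54.2% was above the 50.4% of the autosomes. Of these 7 genes 6 were tested. Gapdh, Slc2a3, Hk2 and Ldhb were higher on S129, and Eno2 and Rpia on CAST.

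The X-linked genes were read from the S129 allele. This male line has only the S129 X chromosome, and CAST reads numbered 4 for Pgk1 (0.0219%), 26 for Pdha1 (0.119%) and 4 for G6pdx (0.0693%), summed over the libraries. Over all 1058 X-linked genes the CAST share was 0.112% to 0.132% per library. In single libraries the share was higher than that of the chromosome for Pdha1 in replicate 2, on 13 CAST reads, and for G6pdx in replicate 1, on 3 CAST reads. These 3 genes were kept out of the counts of autosomal genes.

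Other genes of the pathway, 45 from a fixed list, were lower as a group. Their median was 3.07 RPKM, and 31 of the 45 reached 1 RPKM, with Eno4 listed at 0. Among other isozymes and transporters, 4 of 16 reached 1 RPKM, led by Eno1b, a copy of enolase 1 that may share its reads, at 20.0 ± 2.51 RPKM, and by Gapdhs, the sperm form of GAPDH, at 5.62 ± 0.904 RPKM. With the principal length Gapdhs measured 2.77 RPKM, below Ldhc, the testis lactate dehydrogenase, at 3.02 RPKM. Of 14 regulators, 13 reached 1 RPKM. Bsg, basigin, the partner that carries MCT1 to the membrane, was highest at 853 ± 70.5 RPKM, followed by Pdk1, a kinase that inhibits pyruvate dehydrogenase, at 51.6 ± 4.55 RPKM.

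All 4 genes of pyruvate entry reached 1 RPKM, led by Dld, the third enzyme of the pyruvate dehydrogenase complex, at 63.0 ± 7.74 RPKM and Pdhx, the protein that binds Dld to it, at 19.3 ± 1.71 RPKM. The 6 further genes of the pentose phosphate group were led by Prps1 and Prps2, which make phosphoribosyl pyrophosphate and lie on the X chromosome, at 226 ± 11.3 RPKM (53.2 RPKM with the principal length) and 21.2 ± 1.82 RPKM. Of 5 genes of gluconeogenesis, Pck2, the mitochondrial phosphoenolpyruvate carboxykinase, measured 18.7 ± 1.49 RPKM and Fbp2, a fructose bisphosphatase, 12.5 ± 1.54 RPKM.

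Between the alleles, 29 autosomal genes of this list were tested. Of these, 13 were higher on S129 (44.8%, against 28.9% of all autosomal genes) and 4 on CAST (13.8%, against 32.5%). With the autosomal sum equalised 14 and 4 were (48.3% and 13.8%, against 36.2% and 23.9%), and with the chromosome medians taken out 11 and 4 (37.9% and 13.8%, against 28.6% and 28.4%). The largest differences toward S129 were those of Eno1b (1.66), Pdp2, a phosphatase that activates pyruvate dehydrogenase (1.02), and Shpk, sedoheptulokinase (0.91). The largest toward CAST were those of Tktl2, a transketolase-like gene (-1.84), Pck2 (-0.72) and G6pc3, a glucose 6-phosphatase (-0.46).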

How the data were processed

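The 4 libraries of F123-ESCs were grouped by their labels. The authors removed ribosomal reads, trimmed with Trimmomatic (version 0.40), aligned with STAR to the masked mm10 genome, assigned reads to S129 or CAST with SNPsplit, and deposited RPKM per gene and allele. They also deposited the average RPKM of each allele and log10 of this average, which were not used. No column (0) belonged to another sample. The counting program is not given in the sources used here.

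The 32 genes and the other lists were chosen with earlier results of these data known. Named genes are all 32, the 2 highest of each group of 45 other pathway genes, the 3 of these with the largest called difference per direction, and markers. Whole reads were recovered from the steps of the RPKM with GENCODE M21, within 0.02 reads, for 99.5% of 20243 genes above 0. Library totals of 34120416 to 56627972 reads set the precision.

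Alleles were compared with limma (version 3.58.1, R 4.3.3) on S129 minus CAST of log2(RPKM+0.1), which understates differences of low genes, with an S129 mean plus CAST mean of at least 1 RPKM and calls at an adjusted p under 0.05. By the column labels both alleles of a number are reads of 1 library, so the library was the block. Their deviations correlated at 0.15 to 0.28, against -0.25 to 0.22 for different numbers over 10906 genes. These ranges overlap, and deviations from a mean of 4 libraries sum to 0, which lowers the correlations of different numbers. The correlations therefore do not decide the pairing. Isozymes were compared by exact sign-flip permutation (Python 3.11.15). Copies were searched with blastn (version 2.17.0). The recovery, limma and permutation steps were tested on simulated data. Alternatives were a pseudocount of 1, no filter or one of 10 RPKM, rescaling, chromosome medians, a variance trend, no block, recovered reads, single alleles, exon-union and principal lengths, other comparison genes, and each library left out. The principal length and the comparison with nearest genes were chosen after seeing the data.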

Additional observations from a re-analysis of the deposited data

Results flagged for a closer look

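By Dixon's criterion for 4 values, 2 of the 60 quantities tested held a library far from the others, where chance alone would give about 1 in 20. For Pfkl, the log2 difference S129 minus CAST was 0.068 in replicate 4 and -0.101 to -0.076 in the other libraries, and without replicate 4 the difference was -0.087 (adjusted p = 0.097 in limma), still short of the threshold. For Dlat, the level was 12.1 RPKM in replicate 4 and 13.4 to 13.7 RPKM in the others. The cause of neither was tested.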

How the results depend on the processing

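Of 496 values recomputed under alternatives, 446 kept their direction and side of the threshold, or stayed within the spread between libraries. With a filter of 10 RPKM, genes at least 1.5-fold higher on CAST numbered 3 instead of 5, since Aldoc and Eno2 were then not tested, and with the autosomal sum equalised those higher on S129 numbered 6 instead of 3. This scaling turned the uncalled differences of Hk1 (0.079), Pfkl (0.054), Aldoa (0.090), Pkm (0.0096) and Taldo1 (0.092), and the chromosome median those of Aldoa (0.0088) and Taldo1 (0.010). Taldo1 also turned without replicate 2 (0.0088) or 3 (0.0040), within a range of -0.034 to 0.0088 over the libraries left out. Without the replicate block 7 genes were called for S129 and 10 for CAST, losing Dlat and Tkt and no other call. Leaving out 1 library gave 7 to 8 and 10 to 11 calls. A pseudocount of 1 or a variance trend gave 9 and 13 calls, a filter of 10 RPKM 9 and 11, and no filter 7 and 10. With exon-union lengths Pfkl minus Pfkm became -0.21, Pfkp minus Pfkm -0.023 and Slc2a1 minus Slc2a3 0.20, and on the CAST allele alone the last was 0.53. The median level was 57.6 RPKM with principal lengths. It stood at percentile 93.7 of all genes, 93.0 with principal lengths and 87.4 among genes with at least 1 RPKM. Depth limits Tpi1, with 20 reads, and the CAST reads of X-linked genes. Levels between genes depend on transcript length and on strain differences per gene. The cause of these changes was not tested beyond the number of genes tested.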
